A study of Saccharomyces cerevisiae with 78 samples.

Results

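The strain *rps9a*Δi of *Saccharomyces cerevisiae* carries *RPS9A*, a gene for ribosomal protein S9, with its intron removed and its exons joined. What follows describes the genes of its RNA other than *RPS9A* and the paralog *RPS9B*, compared with wild type. It rests on the 4 arrays labelled with this strain, 2 replicates with the mutant RNA once in Cy3 and once in Cy5, of 78 arrays and 39 replicates in the whole series of 17 intron deletion strains. Mutant and wild-type haploids from the same parent were grown in parallel in rich medium to mid-log phase. RNA of both was converted to cDNA and hybridised to 1 slide, so that wild type is the other colour of every array. The mutant came from 1 engineered allele, and the labels do not say whether the replicates are separate cultures. The p-values therefore measure only the spread between replicates within the strains of the series, which may be technical. *rps9b*Δi, with the intron of *RPS9B* removed in the same way (6 arrays, 3 replicates), is used where another strain is needed for comparison. No group received a drug.

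Most yeast genes have no intron, and ribosomal protein genes make up a large part of those that do. Ribosome production, protein folding and respiration are set by growth: fast growing cells transcribe genes for ribosome assembly strongly and keep heat shock chaperones and respiratory enzymes lower, and cells under stress do the reverse. Introns of several yeast ribosomal protein genes take part in regulating their own gene or its paralog. The array also reports splicing, because many intron-containing genes have an intron feature beside their exon feature, and the intron value minus the exon value is the Intron Accumulation Index, written here as the index. All values are log2 of mutant over wild type as deposited, averaged over the 6 spots of a feature, then over the dye-swapped arrays of a replicate, and given as mean ± SD over replicates (n = 2 unless stated). A gene was called when its mean differed from 0 with an adjusted p under 0.05 in limma, fitted over the 39 replicates of all strains. The spread in that test comes from all strains with more than 1 replicate.

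The labels were checked on the deleted intron. The intron feature was the lowest of the *RPS9A* features in this strain, at -3.50 with the mutant in Cy3 and -1.78 with the mutant in Cy5. Mating type was checked in the same way. None of 11 measured mating-type and pheromone genes was called, where 1.30% of all genes were, and the pheromone precursors *MFA1* and *MFA2* were at 0.03 each. *MF(ALPHA)2* and the receptor gene *STE3* were at -0.11 each. Of the other strains' replicates *MFA2* was as low as -4.65.

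The arrays were incomplete. Between 28.1% and 38.5% of the 9216 spots of an *rps9a*Δi array had no value, against 1.42% to 9.77% for *rps9b*Δi and at most 8.89% on the other 15 arrays of the same slide batch. Batch here means arrays whose titles begin with the same number, which the labels do not explain. An exon value could be had for 923 of 941 genes. It rested on all 4 arrays for 775 of them, on 3 for 84, on 2 for 38 and on 1 for 26.

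The arrays of the 2 dye orientations also gave different values, across genes that share spots and arrays. Arrays of different replicates with the mutant in the same dye correlated with r = 0.61 in Cy3 (798 genes) and r = 0.49 in Cy5 (852 genes), while the dye-swapped arrays of a replicate correlated with r = -0.06 in replicate 1 (828 genes) and 0.00 in replicate 2 (815 genes). Of 775 genes with all 4 values, 203 had 1 sign on both arrays of 1 dye and the other sign on both arrays of the other, and 158 had the same sign on all 4 (65 below 0 and 93 above). In the other 16 strains the mean correlation of dye-swapped arrays was -0.23 to 0.63 (median 0.32). The comparison strain *rps9b*Δi was near the low end, at -0.22, and its same-dye arrays of different replicates correlated with a mean r of 0.26. Its values therefore carry a dye dependence too. A value from 1 dye orientation only is therefore a different quantity here from a mean over both, and it is marked as such below.

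Molecular chaperones and stress genes lay below wild type in *rps9a*Δi. This list, like the others here, was chosen with earlier results of these data known. The shares set beside it therefore describe the list and do not test it. All 12 measured genes of the list had means below 0, against 444 of 922 genes. On all 4 arrays 10 of them were below 0, whereas 8.41% of the 773 genes with 4 values, the S9 pair left out, were. The list median was -0.61, against 0.00 over all genes tested, and it was -0.65 in replicate 1 and -0.58 in replicate 2. By the test, 1 of the 12 was called, *SSA4*, which fell, against 1.30% of all genes. In that direction 7 of the 12 reached an unadjusted p under 0.05 (limma), against 6.07% of all genes. The 7 became 2 without replicate 1 and 3 without replicate 2. In RNA of a whole culture, fewer cells with a transcript and less of it per cell cannot be told apart.

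*SSA4*, the stress-inducible cytosolic Hsp70, was at -0.77 and -0.48 with the mutant in Cy3 and at -1.06 and -1.16 with the mutant in Cy5, replicate 1 first in each pair. All 4 arrays were below 0, with the lower values in Cy5. The mean was -0.87 ± 0.07, a 1.82-fold decrease (limma adjusted p = 0.0159). Both replicates lay below every one of the 37 replicates of other strains, of which the lowest was -0.79, and 0.563% of 888 genes with 2 replicates did so. Over 19 alternatives the call was lost in 6. Among them were the slides of the same batch alone (adjusted p = 0.0941 in limma) and the mutant in Cy3 only (value -0.63, 0.217). The fits without replicate 1 (-0.82) or replicate 2 (-0.92) lost it too.

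*HSP104*, the disaggregase that resolves protein aggregates, had the lowest mean of the list. Its 4 values were -1.45 and -1.22 in Cy3 and -1.48 and -1.19 in Cy5, so that the dyes and the replicates gave nearly the same value. The mean was -1.34 ± 0.18, a ratio of 0.396, yet it was not called (limma adjusted p = 0.240). Its SE of 0.47 holds the spread between replicates of a strain, pooled over strains. The replicates of the other strains ran from -1.96 to 1.49, and the 7 of them in the same batch from -0.69 to 0.93. Over 19 alternatives *HSP104* was called in 4 and stayed uncalled in 15. Blocked by slide batch, which is among the 4, it was at -1.81 (limma adjusted p = 0.0442). That value is lower than on any of its 4 arrays. These arrays all lie in the same batch, so the batch term in that fit rests on other strains.

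The cytosolic Hsp70 and Hsp90 chaperones had means close to each other. *SSA1* and *SSA2*, a nearly identical pair of constitutive Hsp70 genes whose features may pick up each other's RNA, measured -0.63 ± 0.02 and -0.61 ± 0.07. *HSC82*, the constitutive Hsp90, was at -0.43 and -0.24 in Cy3 and at -0.91 and -0.83 in Cy5 (mean -0.61 ± 0.09, limma adjusted p = 0.145). *SIS1*, a J-protein partner of Hsp70, had the opposite order, with -1.11 and -0.96 in Cy3 and -0.24 and -0.24 in Cy5 (mean -0.64 ± 0.06, limma adjusted p = 0.240). Thus the size of these 2 differences depended on the dye, and their sign did not.

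*KAR2*, the Hsp70 of the endoplasmic reticulum, measured -0.70 ± 0.05, and *SSE2*, an exchange factor for Hsp70, -0.47 ± 0.27. The 4 members nearest 0 were *SSA3*, a further inducible Hsp70 (-0.18 ± 0.14), *SSD1*, an RNA-binding protein (-0.11 ± 0.12), *YAP1*, the oxidative stress transcription factor (-0.10 ± 0.04) and *SSB1*, the Hsp70 of translating ribosomes (-0.06 ± 0.04). *SSB1* belongs with the ribosome in its regulation in yeast, and it was the member closest to 0. None of these 6 was called.

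**Figure D1:**
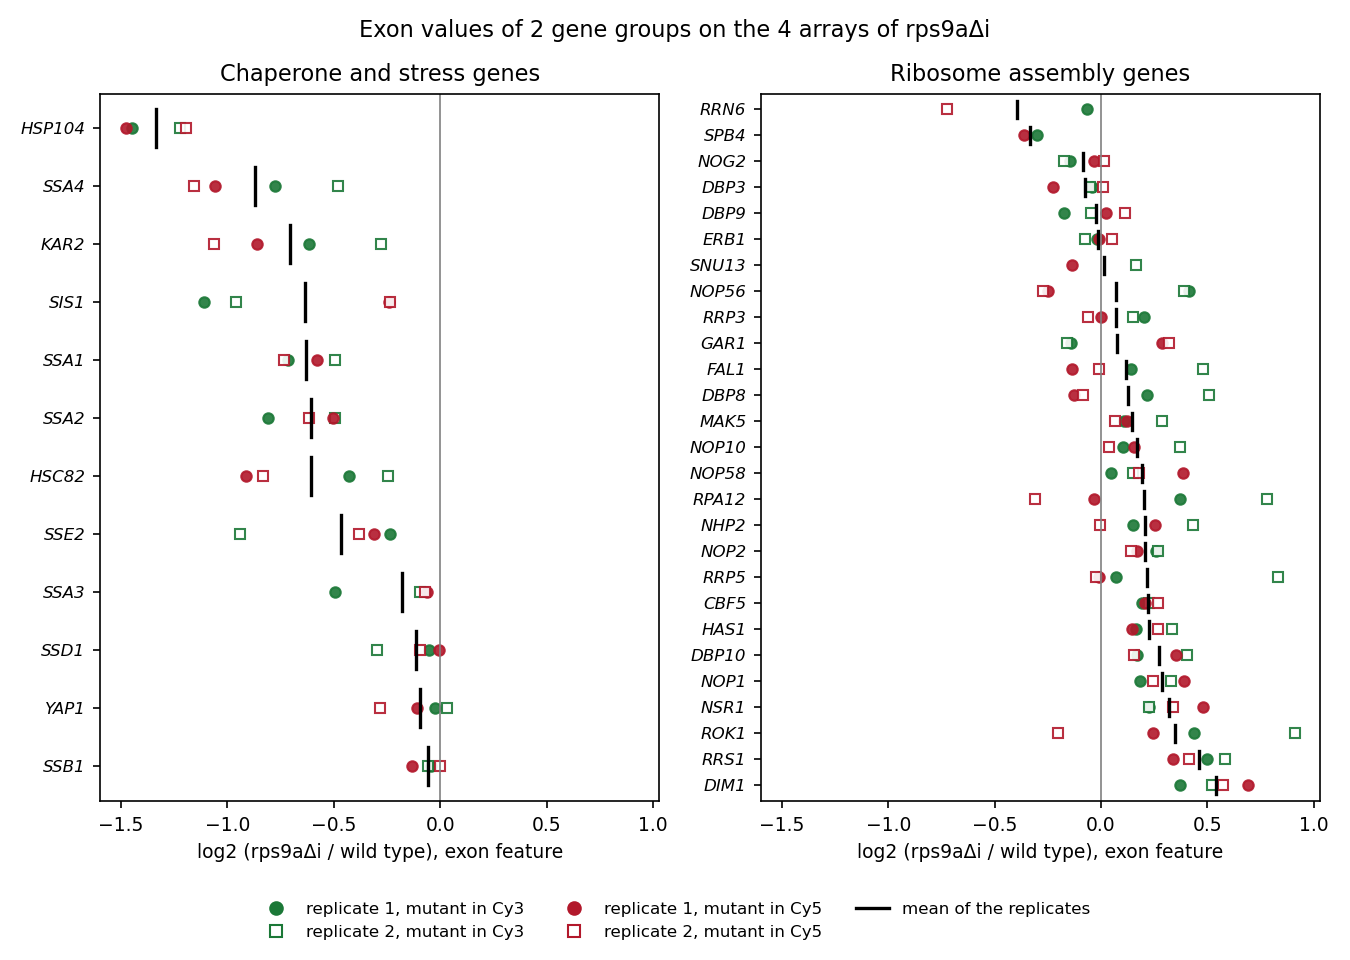
Exon values (log2 of *rps9a*Δi over wild type, horizontal axis) of the 12 chaperone and stress genes (left) and the 27 ribosome assembly genes (right) on each of the 4 arrays; filled circles are replicate 1 and open squares replicate 2, green with the mutant in Cy3 and red with it in Cy5, and the black bar is the mean of the replicates. All 12 means on the left lie below 0, and 21 of the 27 on the right lie above 0.

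In *rps9b*Δi the same list was near 0. The list median there was 0.01, with replicate medians of -0.01, 0.20 and -0.07, and 5 of the 12 means were below 0. The difference between the strains in exon value was -0.87 (SE 0.25) for *SSA4*, -0.88 (SE 0.24) for *HSC82* and -1.28 (SE 0.61) for *HSP104*, and none of these passed after adjustment (limma adjusted p = 0.103, 0.102 and 0.724). Over the 39 replicates the list median of *rps9a*Δi was the second and the third from the bottom. The others ran from -0.69 to 0.83, so that a median this low occurred in 1 other replicate, of *rps14b*Δi on other slides, and the 7 other replicates of the batch lay between -0.11 and 0.42.

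**Figure D2:**
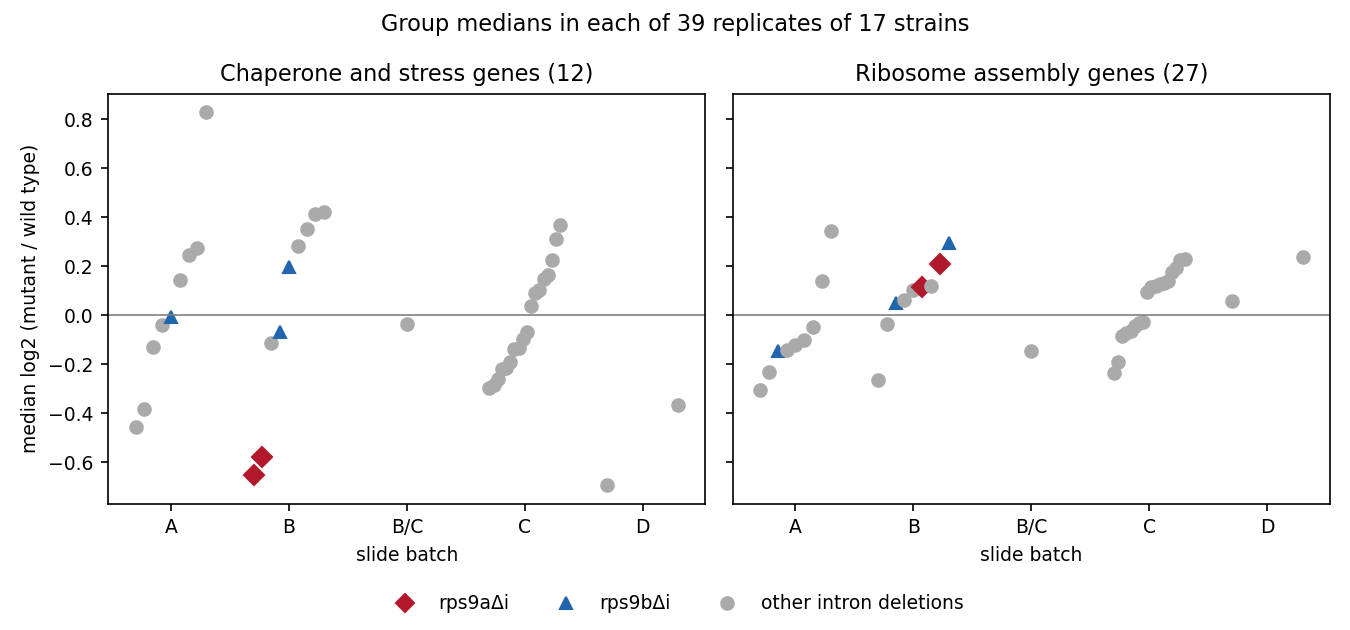
Median log2 ratio of mutant over wild type (vertical axis) of the 12 chaperone and stress genes (left) and the 27 ribosome assembly genes (right) in each of 39 replicates, by slide batch (A to D, with 1 replicate whose arrays lie in 2 batches); red diamonds are *rps9a*Δi, blue triangles *rps9b*Δi and grey points the other 15 intron deletions. The chaperone medians of *rps9a*Δi, -0.65 and -0.58, lie below those of the other replicates of batch B, whereas its ribosome assembly medians lie inside their range.

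Genes for ribosome assembly lay mostly above 0. Of 27 measured, 21 had means above 0, against 478 of 922 genes. On all 4 arrays 11 were above 0, where 11.9% of the 773 genes were. The list median was 0.17 (0.12 in replicate 1 and 0.21 in replicate 2). No member was called, and 5 reached an unadjusted p under 0.05 (limma) above 0, against 4.66% of all genes, with 2 below 0. In *rps9b*Δi 19 of the 27 were above 0 with a median of 0.06, and the replicate medians of other strains ran from -0.30 to 0.34, so the level of the group in *rps9a*Δi lay inside that of the series. With slide batch as a block 16 of the 27 were above 0 and the median was 0.03, and with the mutant in Cy5 only it was 0.07.

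*DIM1*, the methylase of small-subunit rRNA, led the group. It was at 0.37 and 0.52 in Cy3 and at 0.69 and 0.57 in Cy5, all above 0 and higher in Cy5. The mean of 0.54 ± 0.01 (1.45-fold) was not called (limma adjusted p = 0.0766). Both replicates lay above all 37 of the other strains, of which the highest was 0.41, as did those of 0.338% of genes. *RRS1*, of large-subunit assembly, measured 0.46 ± 0.06, *ROK1*, a helicase of the small-subunit pathway, 0.35 ± 0.01, *NSR1*, the yeast nucleolin, 0.32 ± 0.05 and *NOP1*, fibrillarin, 0.29. *ROK1* was above 0 on 3 arrays only (0.44, 0.91, 0.24 and -0.20), and the others on all 4.

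The lowest means of the list rested on fewer arrays. *RRN6*, a subunit of the RNA polymerase I core factor, was at -0.06 in replicate 1, in Cy3 only, and -0.72 in replicate 2, in Cy5 only. *SPB4*, a helicase of the large-subunit pathway, was at -0.33 in replicate 1 with no value in the other. Among the 15 highest genes of 1 sign, 3 were members of this list, as were 11 of all 93 genes above 0 on all 4 arrays. Others of the 15, on no list, were *NIP7* (0.46 ± 0.02), *RIX7* (0.35 ± 0.03), *PUS7*, a pseudouridine synthase (0.34 ± 0.02), and *ECM16*, an RNA helicase (0.36 ± 0.04). By dye, *ECM16* was at 0.46 and 0.74 in Cy3 and at 0.20 and 0.03 in Cy5. None of the 4 was called.

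Ribosomal protein genes lay near 0. Besides *RPS9A*, 33 of 51 measured *RPS* genes and 51 of 69 *RPL* genes had means above 0, with medians of 0.03 and 0.05. Of all genes 478 of 922 were above 0. None of these 120 genes was called, and 5 reached an unadjusted p under 0.05 (limma) above 0 and 1 below, against 4.66% and 6.07% of all genes. *RPL33B*, one of the paralogs for protein L33, was the highest, at 0.22 and 0.54 in Cy3 and 0.49 and 0.05 in Cy5. Its mean of 0.32 ± 0.04 did not pass (limma adjusted p = 0.145), although both replicates lay above the highest of the other strains, 0.28. *RPS26B* followed at 0.27 ± 0.01, and then *RPS2* (0.23 ± 0.09), *RPS3* (0.22 ± 0.03) and *RPL13A* (0.22 ± 0.01). At the low end were *RPL7A* at -0.26 ± 0.31 and *RPS22B* at -0.15 ± 0.18. *RPL7A* had 2 arrays, at -0.04 in Cy3 of replicate 1 and at -0.48 in Cy5 of replicate 2.

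**Figure D3:**
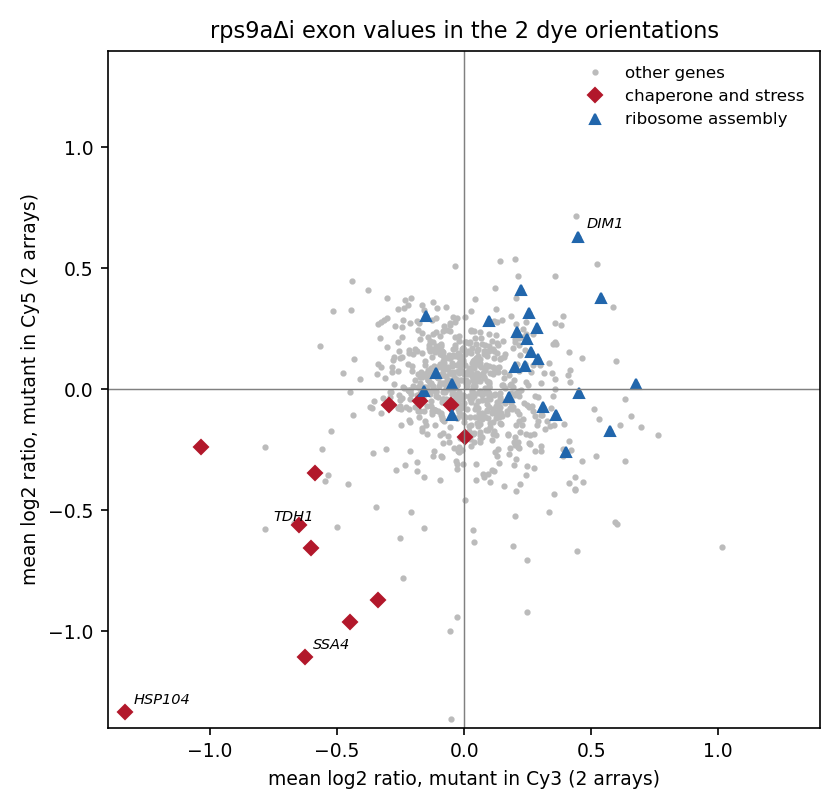
Mean exon value of each gene with all 4 arrays in *rps9a*Δi, *RPS9A* and *RPS9B* left out, with the mutant in Cy3 (horizontal axis, 2 arrays) against the mutant in Cy5 (vertical axis, 2 arrays), both log2 of mutant over wild type; red diamonds are chaperone and stress genes, blue triangles ribosome assembly genes and grey points the rest. Of the 775 genes with 4 arrays, 203 had opposite signs in the dyes in both replicates, whereas *HSP104* and *SSA4* lie low and *DIM1* high in both orientations.

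Of the 15 lowest genes with 1 sign on all 4 arrays, 8 were of the chaperone list. That list held 12 of the 922 genes measured, and 10 of the 65 genes below 0 on all 4 arrays. The others included *TDH1*, a glyceraldehyde-3-phosphate dehydrogenase isoform (-0.68 ± 0.06), *ADR1*, the activator of glucose-repressed genes (-0.54 ± 0.24), *GPD1*, of glycerol synthesis (-0.51 ± 0.11), and *COX4*, a cytochrome c oxidase subunit (-0.44 ± 0.06). *GCN3*, a subunit of the translation factor eIF2B, measured -0.46 ± 0.47 and *COS8*, a membrane protein, -0.61 ± 0.23. None of these 6 was called, and *TDH1* in other strains ran from -2.54 to 1.92. *QCR9*, a cytochrome bc1 subunit, was at -0.31 ± 0.15, and *OM14*, a mitochondrial outer membrane protein, at -0.40 ± 0.08, and both are named here for their index.

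Transfer RNAs encoded in the mitochondrial genome lay mostly below 0. Of 10 measured, 9 had means below 0 and 6 were below 0 on all 4 arrays, against 444 of 922 genes and 8.41% of genes, and 1 was called, against 1.30%. Their median was -0.19, and it was 0.02 in *rps9b*Δi, while that of 19 nuclear tRNAs was -0.05. The called member, *tR(UCU)Q1*, an arginine tRNA, was at -1.71 and -1.34 with the mutant in Cy5 and had no value in Cy3. *tW(UCA)Q*, for tryptophan, was at -0.37 and -0.11 in Cy3 and at -0.64 and -0.92 in Cy5 (mean -0.51, limma adjusted p = 0.205), and *tY(GUA)Q*, for tyrosine, measured -0.42 ± 0.04. Replicate medians of the class were -0.20 and -0.29, inside the range of the other strains, -0.42 to 0.55.

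In all, limma called 12 of 923 genes by exon value (1.30%), 2 up and 10 down, with 99 at an unadjusted p under 0.05. Of the 12, 3 had values on all 4 arrays, namely *RPS9A*, *SSA4* and *PDC2*, and 5 had none with the mutant in Cy3, against 38 of the 923 genes tested. With each array scaled to a common spread the calls were 28 up and 39 down, all 12 included. With both dye orientations required in each replicate that gives a value, 3 remained, 1 up and 2 down.

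*NDT80*, the transcription factor of middle meiosis, had the lowest mean of all. It was at -1.68 and -2.28 with the mutant in Cy5 and was without a value in Cy3 (mean -1.98 ± 0.43, limma adjusted p = 1.01e-05). Like *tR(UCU)Q1* (-1.52 ± 0.27, limma adjusted p = 1.73e-09), it fell on the arrays of 1 dye in both replicates. *NDT80* was the only call among the 14 measured meiotic genes, where 1.30% of all genes were called. With no intensities given, whether the features of these genes were dim was not tested. *SPO1*, a further one with an intron, was at 2.43 on 1 Cy3 array and at -0.64 and -0.26 on the 2 Cy5 arrays.

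A further 3 calls rested on 1 array, with the mutant in Cy5 in replicate 2. These were *SDC25*, a Ras exchange factor (-1.36), *SKO1*, an osmotic stress repressor (-0.65), and *SXM1*, a nuclear import factor (-0.56). No spread between replicates can be given for them. In limma on the batch's slides alone *SKO1* (adjusted p = 0.0941) and *SXM1* (0.116) were not called, and over 14 alternatives *SKO1* lost its call in 4, *SXM1* in 7 and *SDC25* in 1. In *ITT1*, which modulates translation termination, the mean of -0.80 ± 1.01 came from 1 Cy5 array at -3.44, beside 0.42 in Cy3 and -0.09 in Cy5. *IAI11* rose by 1.02 ± 1.66 from 2 arrays, at -0.16 in replicate 1 with the mutant in Cy3 and at 2.20 in replicate 2 with it in Cy5. Its SD therefore cannot tell replicate from dye. *POP4*, of RNase P, was at 0.43 in Cy3 and at -1.46 and -0.37 in Cy5 (mean -0.44). The arrays of these 3 genes lie on both sides of 0. In limma without replicate 1, *ITT1* was at -0.09 (adjusted p = 0.983), and without replicate 2 *IAI11* was at -0.16 (0.999). *POP4* was lost without either (0.629 and 0.243).

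*PDC2* and *SWI5* remain. *PDC2*, the activator of pyruvate decarboxylase and thiamine genes, was at 0.11 and -0.17 in Cy3 and at -0.67 and -1.21 in Cy5, so that its decrease of -0.48 ± 0.29 (limma adjusted p = 0.0390) lay on the Cy5 arrays. Over 19 alternatives *PDC2* lost its call in 10, among them the batch's slides alone (adjusted p = 0.169 in limma) and the fit without replicate 2 (-0.28). *SWI5*, a cell cycle transcription factor, had 3 arrays, at -0.60 in Cy3 and at -0.06 and -0.46 in Cy5. All were below 0 (mean -0.40 ± 0.10, limma adjusted p = 0.0159). It too was lost on the batch's slides (adjusted p = 0.116 in limma), and without replicate 1 (0.0692) or replicate 2 (0.521).

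**Figure D4:**
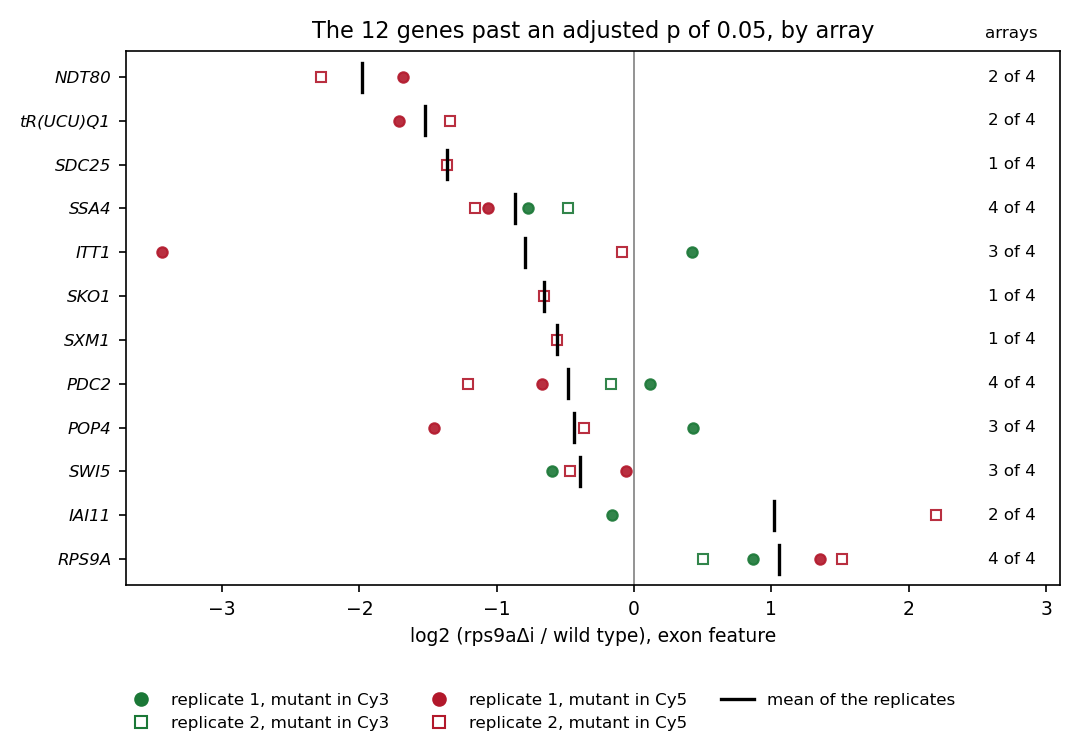
Exon values (log2 of *rps9a*Δi over wild type, horizontal axis) of the 12 genes with an adjusted p under 0.05 on each array that has one; symbols are as in the plot of gene groups by array, and the number of arrays with a value is given at the right. Only *RPS9A*, *SSA4* and *PDC2* have 4 values, and *RPS9A* and *SSA4* alone of these have 1 sign throughout.

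Compared directly with *rps9b*Δi, 4 of 923 genes differed (0.433%, 57 at an unadjusted p under 0.05 in limma). Besides *RPS9A* and *RPS9B*, these were *NDT80*, lower in *rps9a*Δi by a difference of -1.93 (SE 0.33, limma adjusted p = 0.00106), and *tR(UCU)Q1*, by -1.60 (SE 0.16, limma adjusted p = 7.43e-08). In *rps9b*Δi these genes were at -0.05 ± 0.09 and 0.08 ± 0.12 (n = 3). Both differences thus carry the missing Cy3 values of *rps9a*Δi.

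Of the 6 measured genes of glycolysis, fermentation and their regulators, 5 had means below 0 (median -0.16), against 444 of 922 genes. On all 4 arrays 2 were below 0 (8.41% of genes), and 1, *PDC2*, was called, against 1.30% of all genes. The replicate medians, -0.18 and -0.13, were the lowest and the third from the bottom of the 39, and those of the other strains ran from -0.15 to 0.22. Besides *TDH1* and *PDC2*, *GCR1*, an activator of glycolytic genes, measured -0.18 ± 0.09 and *PGK1*, phosphoglycerate kinase, -0.13 ± 0.03.

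Groups of RNA processing had medians near 0. Of 79 splicing factors 45 were above 0 (median 0.02), against 478 of 922 genes. None was called, and 1 was at an unadjusted p under 0.05 (limma), against 99 of 923 genes. Of 31 genes for nonsense-mediated decay and RNA turnover 22 were above 0 (median 0.05), none called and 2 at an unadjusted p under 0.05, beside the same shares of all genes. Replicate medians of these 31 genes were 0.026 and 0.094, the latter the highest of the 39, and the other strains ran from -0.116 to 0.093. The highest member was *RRP6*, an exosome nuclease, at 0.30 ± 0.18, and *RAT1*, the nuclear 5′ exonuclease, measured 0.25 ± 0.14. Of 9 genes for ubiquitin-like conjugation and the proteasome 7 were below 0 (median -0.09), against 444 of 922 genes. On all 4 arrays 4 were below 0, against 8.41% of genes. The replicate medians were -0.08 and -0.13, the latter the lowest of the 39, and the other strains ran from -0.11 to 0.19. The lowest members were the near-identical *UBC5* (-0.35 ± 0.13) and *UBC4* (-0.28 ± 0.03), the conjugating enzymes for short-lived and abnormal proteins, and none of the 9 was called. Single genes among the highest of 1 sign were *HIS4*, of histidine synthesis (0.58 ± 0.16), *NRD1*, of transcription termination (0.52 ± 0.08), *IMD3*, of guanine nucleotide synthesis (0.41 ± 0.18), and *HRP1*, of mRNA 3′ end formation (0.30 ± 0.11), none of them called.

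Turning to splicing, the index of 202 genes besides *RPS9A* could be tested, 137 of them on all 4 arrays. Limma called 7 (3.47%), 1 up and 6 down, with 24 at an unadjusted p under 0.05, and none of the 7 had 4 arrays. All of them but *TDA5* had a single intron value, with the mutant in Cy5. From it the index subtracts the exon mean of that replicate over both dyes, so these indices mix the dye orientations. *PRE3*, a proteasome subunit, had an intron value of -2.15 in Cy5 and an index of -1.99, and *SMD2*, a core protein of the spliceosome, -1.97 and -1.91. With the mutant in Cy5 the exon values of *SMD2* were -0.28 in replicate 1 and -0.08 in replicate 2. *LSM7*, of the U6 particle, was the only one to rise, with an intron value of 1.48 and an index of 1.46. The mean exon values of *PRE3*, *SMD2* and *LSM7* over replicates and dyes were -0.17, -0.01 and 0.04. The intron feature thus made up almost the whole of each index.

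The other 4 also had few intron values. *RBS1* (-1.41), *UBC9*, the SUMO conjugating enzyme (-1.25), and *BET1*, a vesicle transport SNARE (-1.22), each had 1 intron value, in replicate 2, and mean exon values of 0.02, 0.12 and -0.02, where that of *UBC9* in replicate 2 was 0.25. *TDA5* had an index of 0.24 on the array of replicate 1 and -1.12 on that of replicate 2 that held both of its features (mean over all values -0.65 ± 0.50, limma adjusted p = 0.00187), and without replicate 2 it was not called (-0.30, adjusted p = 0.902 in limma). When both dyes were required, none of 164 indices was called (9 at an unadjusted p under 0.05).

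Genes with 4 arrays gave smaller indices. Of the 137, 15 were below 0 on all 4 and 7 above, and 9 of the 15 and 2 of the 7 were ribosomal protein genes, as were 84 of the 137. *RPL33B* was at -0.19 and -0.61 in Cy3 and -0.55 and -0.32 in Cy5 (mean -0.42 ± 0.07, limma adjusted p = 0.0678), and *RPS26B* at -0.14 and -0.37, and -0.55 and -0.52 (mean -0.40 ± 0.07, limma adjusted p = 0.0741). In both the exon value was above 0 (0.32 and 0.27) and the intron value slightly below it (-0.09 and -0.13). *DBP2*, a helicase whose intron takes part in its own feedback, had the lowest mean index of this kind (-0.58 ± 0.19, limma adjusted p = 0.635), with exon 0.37 and intron -0.21. *HNT1*, a nucleotide hydrolase, had an index of -0.47 ± 0.05 with the larger share in the intron value (-0.33).

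Over the 94 ribosomal protein genes with an index, 71 were below 0 (median -0.08), and over the 108 other genes 60 were (median -0.04). None of the 94 was called, against 7 of all 202. At an unadjusted p under 0.05 (limma) were 3, 1 up and 2 down, against 24 of the 202. The count depended on the dye: 40 of the 94 were below 0 with the mutant in Cy3 only and 76 with it in Cy5 only. Replicate medians of -0.13 and -0.05 lay inside those of the other strains, -0.20 to 0.22.

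The 7 genes with indices above 0 on all 4 arrays all had exon values below 0, which the index subtracts. *COX4* had an index of 0.40 ± 0.04 with an exon value of -0.44 and an intron value of -0.04, and *UBC4* one of 0.39 ± 0.21 with -0.28 and 0.11. *QCR9* was similar (0.23 ± 0.13, exon -0.31, intron -0.08). *RPS9B* had the highest intron value of the 7, at 0.44. None of the 7 was called. Among the genes with known splicing feedback, *YRA1*, for mRNA export, had an exon value of 0.16 ± 0.04 and *RPL30* an index of -0.32 ± 0.37, at 0.02 and 0.38 in Cy3 and -1.19 and -0.49 in Cy5. The dyes thus gave opposite signs for *RPL30*.

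**Figure D5:**
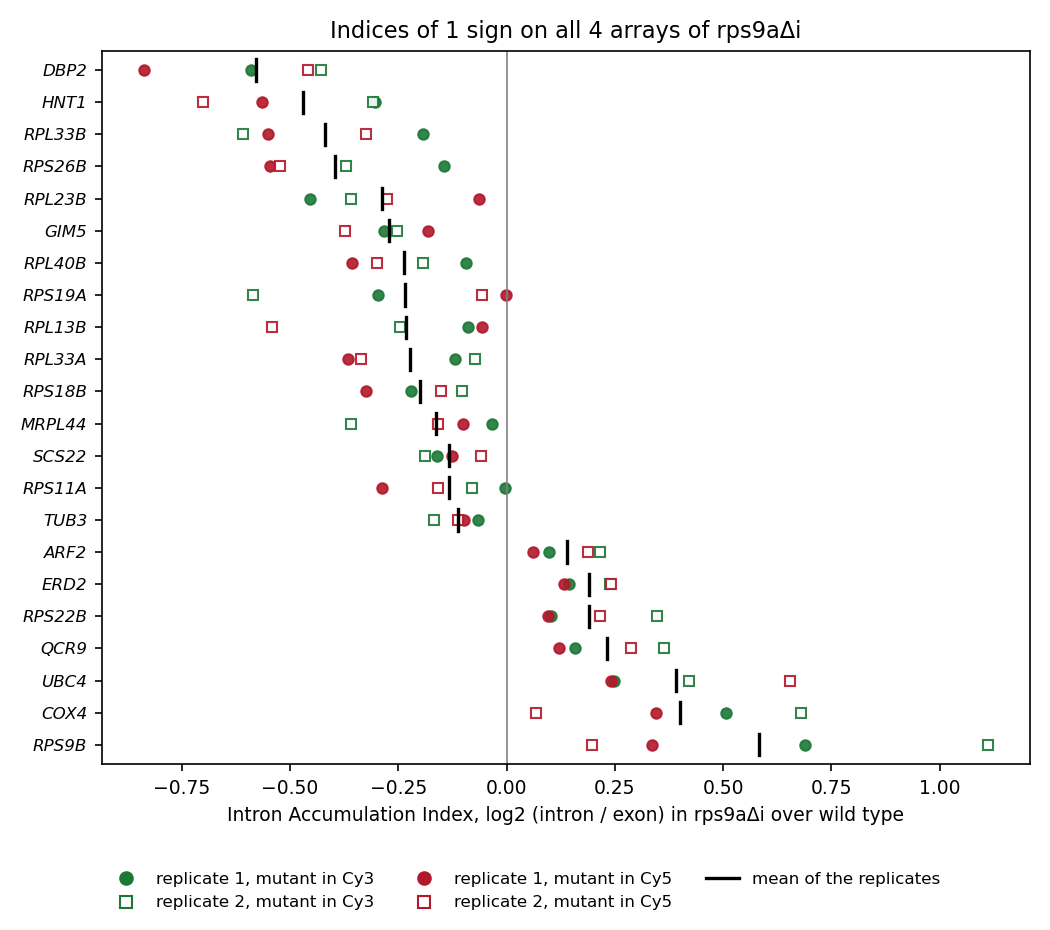
Intron Accumulation Index (log2 of intron over exon in *rps9a*Δi relative to wild type, horizontal axis) on each array for the 22 genes besides *RPS9A* whose index had 1 sign on all 4; symbols are as in the plot of gene groups by array. Means run from -0.58 for *DBP2* to 0.58 for *RPS9B*, with 15 genes below 0 and 7 above.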

How the data were processed

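The authors deposited log2 ratios (mutant divided by wild type) that had been normalized in R, with the packages marray and limma after the Goulphar scheme, and turned to 1 direction. How background was corrected, which spots were filtered and the versions used: not given in the sources used here. With no intensities given, the effect of dim spots was not tested, and the number of arrays limits the precision. The 6 spots of a feature were averaged, then the dye-swapped arrays of a replicate. Exon, intron and junction features were told apart by the printing layout alone (941 genes with exon, 228 with intron features), a rule checked on the deleted introns of the 17 strains, while for 15 genes the step of the rule that applied has no such intron to check it. All 982 symbols matched the RefSeq table by identifier, which also gave the tRNA class. Means were tested against 0 with limma 3.58.1 in R 4.3.3 over 39 replicates (22 residual degrees of freedom), with Benjamini-Hochberg adjustment over genes; other steps used Python 3.11.15. The script was tested on simulated data.

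Genes named are those called, the 15 each way with the largest exon value of 1 sign on 4 arrays, the 8 each way by index of 1 sign in both replicates, the splicing-feedback list, the highest and lowest member of each list, and those that differed from *rps9b*Δi. A few further list members are named beside them, chosen after their values were seen. The members and lists were chosen with earlier results of these data known. Alternatives covered scaling, dye, batch, missing values and the fit.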

Additional observations from a re-analysis of the deposited data

Results flagged for a closer look

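Differences between *rps9a*Δi and *rps9b*Δi that passed the test of the difference itself (limma, adjusted over 923 genes) were -1.93 for *NDT80* and -1.60 for *tR(UCU)Q1*, both without a value in *rps9a*Δi when the mutant was in Cy3. Those for the S9 genes were 2.69 for *RPS9A* and -0.67 for *RPS9B*. Groups of 2 replicates were not tested for outlying samples.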

How the results depend on the processing

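Exon calls, 12 as reported, numbered 67 with each array scaled to a common spread, 46 with array weights, 26 with slide batch as a block, 22 with the mutant in Cy5 only, 21 with each array as a replicate, 7 against the mean of the other strains, 6 on batch B slides only, 5 with at least 3 spots and 2 over complete features only. There were 0 from the replicates of *rps9a*Δi alone in limma (147 at an unadjusted p under 0.05), and 3 with both dyes required, a setting chosen after seeing the data. With the mutant in Cy3 only, 9 were called, of which 0 were among the 12. Leaving out a replicate gave 10 to 11, of which 8 were among the 12 without replicate 1 and 4 without replicate 2.

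The labels do not say whether equal replicate numbers of *rps9a*Δi and *rps9b*Δi belong together. Deviations of the genes correlated at 0.17 for number 1, -0.02 for number 2 and 0.16 for the unmatched numbers 2 and 3. The deviations of the 2 *rps9a*Δi replicates mirror each other, so these values cannot decide whether the numbers are paired. With the replicate block there were 7 exon calls, all among the 12, against 8 indices and 4 differences between the strains.

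Index calls, 7 as reported, were 22 after scaling, 15 with the batch block, 15 on batch B slides only, 11 from the strain's own replicates, and 0 in limma over complete features only (7 at an unadjusted p under 0.05), with at least 3 spots (13) or with both dyes required (9). They were 2 to 9 with a replicate left out, 2 without replicate 2. Differences from *rps9b*Δi, 4 as reported, were 23 after scaling, 40 with array weights, 15 with the batch block, 11 with the mutant in Cy5 only, 1 in Cy3 only, 2 over complete features, and 5 to 7 with a replicate left out (7 without replicate 2).

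Counts by list were checked after seeing the data. Chaperone genes below 0 numbered 11 of 12 in Cy3 only and 12 under the other settings, 12 to 12 with a replicate left out. Ribosome assembly genes above 0 ran from 16 to 23, 20 to 22 with a replicate left out, and ribosomal protein genes with an index below 0 numbered 55 to 74 with one left out and 40 in Cy3 only.

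Signs turned with the mutant in Cy3 only for *IAI11* (-0.16), *ITT1* (0.42), *POP4* (0.43) and the index of *TDA5* (0.24). They also turned for *IAI11* without replicate 2 (-0.16, the same array) and for *POP4* with at least 3 spots (0.032). *IAI11* was at 2.20 without replicate 1. The causes were not tested.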
